A study of Mus musculus with 16 samples.

Results

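The genes described here are 7 matrix metalloproteinases (Mmp2, Mmp3, Mmp7, Mmp9, Mmp10, Mmp11 and Mmp14) and 3 tissue inhibitors of metalloproteinases (Timp1, Timp2 and Timp3), measured in the mouse uterus. They were chosen by name, with earlier results of these data known. All 10 were found among the 34797 gene names on the array, where 12 probes measure them. All 10 were among the 25893 genes tested, and all 12 probes were well above background on all 16 arrays, so that no member entered or left through the filter on dim probes.

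The samples were uteri of mice that had lost their ovaries at 4 weeks of age and were kept for 2 to 3 weeks on normal chow before a single treatment, given under the skin in castor oil. Treated mice received 17β-estradiol (E2, the main ovarian estrogen) at 8 µg/kg, control mice received the oil at 0 µg/kg (PLB), and RNA was measured 6 h later. The mice carried either a form of estrogen receptor alpha named for its arginine Arg260, or the wild-type receptor (WT). The 4 groups were Arg260 E2, Arg260 PLB, WT E2 and WT PLB, each with 4 samples on 1 array each, and all of them, controls included, came from ovariectomised mice. The labels do not say how the arginine was changed, in which cells, or whether each sample was a separate animal; the p-values measure only the spread between samples, which may be technical.

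Matrix metalloproteinases are zinc-dependent endopeptidases that cut collagens, laminins, proteoglycans and other matrix proteins. Most are secreted as inactive zymogens and become active once a propeptide is removed, often by another protease such as plasmin or by another member of the family. TIMPs bind the active site and block it, and TIMP2 in addition helps MMP14 at the cell surface to activate pro-MMP2. In the uterus the family takes part in the matrix remodelling of the estrous cycle, implantation, menstruation in species that menstruate, and involution after birth.

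The arrays were of like quality. Between 36505 and 41890 spots per array were well above background, 0 were saturated, and any pair of arrays within a group had a correlation over genes of 0.980 to 0.993. A principal component with 71.77% of the variance held the E2 and PLB arrays apart, and 2 PLB arrays, Arg260 replicate 3 and WT replicate 2, were remote from all others on the next one (5.12%). Epithelial, stromal, smooth muscle and endothelial markers were measured throughout, as a whole uterus would give. Of the 9 macrophage markers, the mean level was 3.14 on Arg260 PLB replicate 3 and 1.33 to 1.71 on the other 3 Arg260 PLB arrays. The mean of the 7 adipocyte markers ranged from -2.64 to 0.51 in Arg260 E2, from -0.06 to 1.53 in Arg260 PLB, from -4.94 to -0.59 in WT E2 and from 0.37 to 2.41 in WT PLB.

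All levels below are log2 of the processed signal relative to the 75th percentile of the same array, so that 0 is a signal equal to that percentile and 1 unit is a doubling in signal. They compare groups for 1 probe and not different genes with each other. Changes are E2 minus PLB, with the standard error (SE) and the adjusted p (Benjamini-Hochberg, over all genes tested) of a limma fit to all 16 arrays. The threshold for a call was an adjusted p of 0.05.

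After E2, several proteinase genes fell and 1 inhibitor gene rose. Mmp11, Mmp10, Mmp9, Mmp3 and Mmp14 were lower in both genotypes, Timp2 was lower by the probe that stands for it, and Timp1 was higher. Mmp7 was higher in Arg260 and was not called in WT, Mmp2 and Timp3 were called in neither. In Arg260, 8 of the 10 genes were called, 2 higher and 6 lower, where 64.3% of all genes tested were called (33.6% higher and 30.7% lower). In WT, 7 of the 10 were called, 1 higher and 6 lower, where 63.6% of all genes were called (31.9% higher and 31.7% lower). The share of members called was thus near that of all genes. The median change of the 10 members was -0.58 in Arg260 and -0.63 in WT, beside 0.02 and -0.02 over all genes tested in the same 2 comparisons. Because the members were chosen with earlier results known, these medians describe the chosen genes and do not test the family. Of the calls, 6 in Arg260 and 5 in WT were at least 2-fold. The E2 and PLB arrays did not overlap for 6 members in Arg260 and 7 in WT, where 58.7% and 59.1% of all genes did not overlap.

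**Figure D1:**
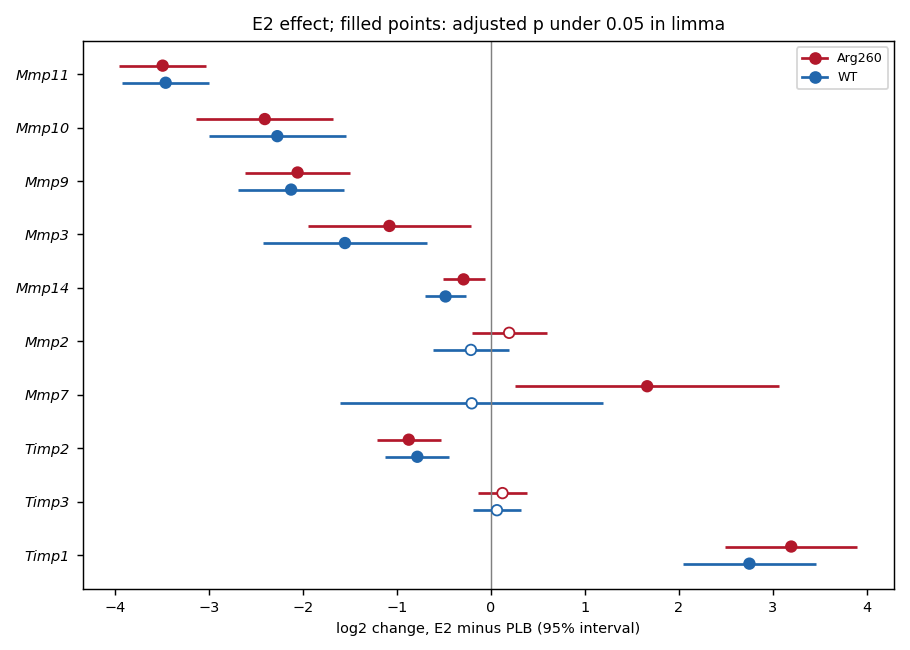
Change after E2 of each of the 10 genes, as the log2 difference E2 minus PLB (horizontal axis), with Arg260 above WT in each row; lines are 95% intervals and filled points were called in limma (n = 4 arrays per group). Mmp11 lies furthest to the left at -3.49 in Arg260 and -3.46 in WT, Timp1 furthest to the right at 3.20 and 2.75, and Mmp7 has the widest intervals.

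The first members are the gelatinases, MMP2 and MMP9, which cut denatured collagen and the collagen of basement membranes. MMP2 is made constitutively by many stromal cells, whereas MMP9 is inducible and is also stored in neutrophil granules. Their probes lie on mouse build mm9 at chr8:95376840-95376899 (Mmp2) and chr2:164780620-164780679 (Mmp9), and the files do not say whether these or the later probes lie in coding sequence.

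Mmp9 was at -5.22, -4.70, -3.71 and -4.46 in Arg260 E2, against -2.28, -2.65, -2.64 and -2.30 in Arg260 PLB. Its WT levels were -4.61, -4.08, -4.31 and -4.88 after E2, against -2.51, -2.31, -2.53 and -2.02 with PLB. Every E2 array was below every PLB array in both genotypes. Mmp9 fell by 2.06 in Arg260 (SE 0.26, adjusted p = 6.79e-06 in limma) and by 2.12 in WT (SE 0.26, adjusted p = 4.96e-06), which is 4.16-fold and 4.36-fold lower. As a whole-tissue measurement this, like every change below, cannot tell fewer cells of a type from less RNA per cell. The size differed with the processing as a whole, and Arg260 is first in each pair below. The change was -1.15 and -1.21 after normexp correction with quantile normalization. It was -1.91 and -1.96 after quantile normalization of the processed signal, and -1.45 and -1.50 in the authors' deposited table. Each of these changes was called. Of 9 listed neutrophil markers, 7 were tested, and 4 (S100a8, Ly6g, Camp and Elane) were called higher and 0 lower in each genotype. S100a9, Mpo and Csf3r were called in neither genotype. Over all genes tested, 33.6% were called higher in Arg260 and 31.9% in WT. The mean of the 7 ranged from -1.25 to -0.67 in Arg260 E2, against -2.07 to -1.46 in Arg260 PLB, and from -1.16 to -0.36 in WT E2, against -1.80 to -1.14 in WT PLB. Mmp8, the neutrophil collagenase gene, did not pass the filter on dim probes. Of the 9 macrophage markers, 1 was called higher and 3 lower in Arg260, and 1 higher and 2 lower in WT. Among all genes, 30.7% were called lower in Arg260 and 31.7% in WT. What part neutrophils or macrophages had in the Mmp9 signal was not tested.

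Mmp2 was at 2.73, 2.06, 1.93 and 2.15 in Arg260 E2, against 1.89, 1.86, 2.03 and 2.31 in Arg260 PLB. The WT arrays were at 1.72, 1.79, 1.69 and 1.75 after E2, against 1.87, 1.70, 1.74 and 2.49 with PLB. The groups overlapped within each genotype, and the 4 WT E2 arrays lay within 0.1 of each other while replicate 1 of Arg260 E2 and replicate 4 of WT PLB stood above the rest of their groups. The change was 0.20 in Arg260 (SE 0.19, 95% interval -0.21 to 0.60, adjusted p = 0.378 in limma) and -0.21 in WT (SE 0.19, -0.61 to 0.19, adjusted p = 0.342). In the authors' deposited table the WT change was called, at -0.42 (adjusted p = 0.0399).

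The stromelysins MMP3 and MMP10 have a broad range of matrix substrates and activate other proMMPs, while MMP11, also called stromelysin 3, is activated by furin inside the cell, degrades matrix poorly and is known from stromal cells next to remodelling or tumour epithelium. The mm9 positions of the probes are chr9:7455751-7455810 (Mmp3), chr9:7510011-7510070 (Mmp10) and chr10:75386024-75386083 (Mmp11, the probe that stands for the gene). Mmp3, Mmp10 and the matrilysin gene Mmp7 belong to 1 cluster of 10 metalloproteinase genes on chromosome 9, and their promoters are shown because these 3 neighbours share a motif. Mmp3 and Mmp10 were called lower in both genotypes, whereas Mmp7 was called only in Arg260, as higher, in a call that several settings below did not keep. The promoters of Mmp11 and Timp1, the members that fell and rose most, are shown for comparison.

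The 120 bases before each gene's annotated start are RefSeq's, on GRCm38.p6, 5′ to 3′ in the direction of the gene. Capitals mark TGANTCA (the AP-1 motif), GGGCGG on either strand (the GC box bound by Sp1) and TATAA on the gene's strand.
Mmp3, chr9:7445702-7445821, plus strand: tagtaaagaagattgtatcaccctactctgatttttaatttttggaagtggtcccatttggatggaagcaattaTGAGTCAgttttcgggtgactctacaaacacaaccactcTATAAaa
Mmp10, chr9:7502222-7502341, plus strand: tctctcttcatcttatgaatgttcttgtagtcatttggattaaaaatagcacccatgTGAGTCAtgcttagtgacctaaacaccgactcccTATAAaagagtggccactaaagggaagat
Mmp7, chr9:7691970-7692089, plus strand: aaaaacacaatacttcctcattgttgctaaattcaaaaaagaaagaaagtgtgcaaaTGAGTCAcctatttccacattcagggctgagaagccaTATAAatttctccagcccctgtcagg
Mmp11, chr10:75932503-75932622, minus strand: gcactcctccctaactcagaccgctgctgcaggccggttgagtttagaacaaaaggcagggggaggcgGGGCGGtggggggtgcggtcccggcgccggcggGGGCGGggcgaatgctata
Timp1, chrX:20870046-20870165, plus strand: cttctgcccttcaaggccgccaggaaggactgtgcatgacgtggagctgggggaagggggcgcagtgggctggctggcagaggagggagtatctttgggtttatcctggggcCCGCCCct

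The word TGAGTCA lies 46 bases before the start of Mmp3 and 63 bases before those of Mmp10 and Mmp7, with TATAA between it and the start in each. Mmp7 has 2 annotated starts in the table; the first is shown, and the window of the second held none of the motifs searched. In the 250 bases before the start, TGANTCA on either strand was found, at 1 or more annotated starts, in 3 of the 8 members with a promoter in the table and in 0 of the 5 that lie outside the cluster. It was found in 8 of the 10 cluster genes, counted in the same way, and in 6.749% of all 32851 promoters (7.819% of 27025 genes). GGGCGG was found in 5 of the 8 members (Mmp11, Mmp14, Timp1, Timp2 and Timp3) and in 32.742% of all promoters. The full estrogen response element, GGTCA and TGACC with 3 bases between them, was in 0 of the 8 members and in 0.064% of all promoters. Such matches describe letters in these windows and say nothing of what bound there.

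Mmp3 was at -1.48, -1.37, -0.18 and -0.77 in Arg260 E2, against 0.26, 0.18, -1.05 and 1.12 in Arg260 PLB. In WT it was at -1.87, -0.61, -1.37 and -1.31 after E2, against 0.31, 0.66, 0.14 and -0.05 with PLB. The groups did not overlap in WT but did in Arg260, where PLB replicate 3 lay below 2 of the E2 arrays. Mmp3 fell by 1.08 in Arg260 (SE 0.41, adjusted p = 0.0307 in limma) and by 1.55 in WT (SE 0.41, adjusted p = 0.00379). The Arg260 call was lost without replicate 1 or 2 of Arg260 E2 or replicate 1, 2 or 4 of Arg260 PLB (adjusted p from 0.0579 to 0.108), with arrays centred on their median (0.0569) and with only the groups compared in the fit (0.0753). The 7 tested adipocyte markers all had a negative change after E2, as Mmp3 did, but most were not called in Arg260. There, 0 were called higher and 2 lower (Cidec and Lep), and in WT 0 higher and 7 lower. The Lep probe was well above background on 0 of 4 E2 arrays in each genotype. It was so on 2 of 4 PLB arrays in Arg260 and 3 of 4 in WT. Its calls thus rest in part on signal not above background. Among all genes, 30.7% were called lower in Arg260 and 31.7% in WT. Within WT E2 and within WT PLB, the marker mean was highest on the array with the highest Mmp3 and lowest on that with the lowest Mmp3. In Arg260 E2 this held for the highest array only, and in Arg260 PLB for neither. What part these cells had in the Mmp3 change was not tested.

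Mmp10 was at -4.57, -2.88, -2.73 and -3.27 in Arg260 E2, against -0.63, -0.81, -1.003 and -1.39 in Arg260 PLB. Its WT levels were -2.82, -2.64, -3.11 and -3.59 after E2, against -0.46, -1.18, -0.70 and -0.73 with PLB. Every E2 array was below every PLB array of its genotype, with a gap of over 1 unit in each. Mmp10 fell by 2.41 in Arg260 (SE 0.34, adjusted p = 2.00e-05 in limma) and by 2.27 in WT (SE 0.34, adjusted p = 3.57e-05), or 5.30-fold and 4.83-fold. After normexp correction with quantile normalization the change was -1.73 in Arg260 and -1.71 in WT. In the authors' deposited table it was -1.99 and -1.88. The Arg260 change was -3.01 on slide 1 alone, which holds the lowest array, and -1.80 on slide 2 alone.

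Mmp11 had the largest fall of the 10 in both genotypes. Its level was -1.09, -0.63, -0.35 and -0.51 in Arg260 E2, against 2.94, 2.81, 3.26 and 2.39 in Arg260 PLB. The WT arrays were -0.54, -0.31, -0.71 and -0.44 after E2, against 3.37, 2.51, 3.18 and 2.78 with PLB. The lowest PLB array and the highest E2 array of either genotype were more than 2.5 units apart. The change was -3.49 in Arg260 (SE 0.21, 95% interval -3.95 to -3.03, adjusted p = 3.71e-09 in limma) and -3.46 in WT (SE 0.21, -3.92 to -3.00, adjusted p = 4.06e-09), or 11.0-fold lower in WT. Stromal fibroblast markers fell too, by less: 0 of the 8 tested were called higher and 5 lower in each genotype, with a median change of -0.86 in Arg260 and -0.90 in WT. Among all genes, 30.7% were called lower in Arg260 and 31.7% in WT. The means of the 8 ranged from 3.58 to 4.09 in Arg260 E2, against 4.46 to 5.13 in Arg260 PLB, and from 3.404 to 4.33 in WT E2, against 4.29 to 4.99 in WT PLB. Lum, a stromal proteoglycan gene, fell by 1.56 in Arg260 and fell by 1.37 in WT, and Pdgfra, a receptor gene of stromal cells, fell by 0.93 in Arg260 and fell by 1.104 in WT. What part stromal cell content had in the Mmp11 change was not tested.

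**Figure D2:**
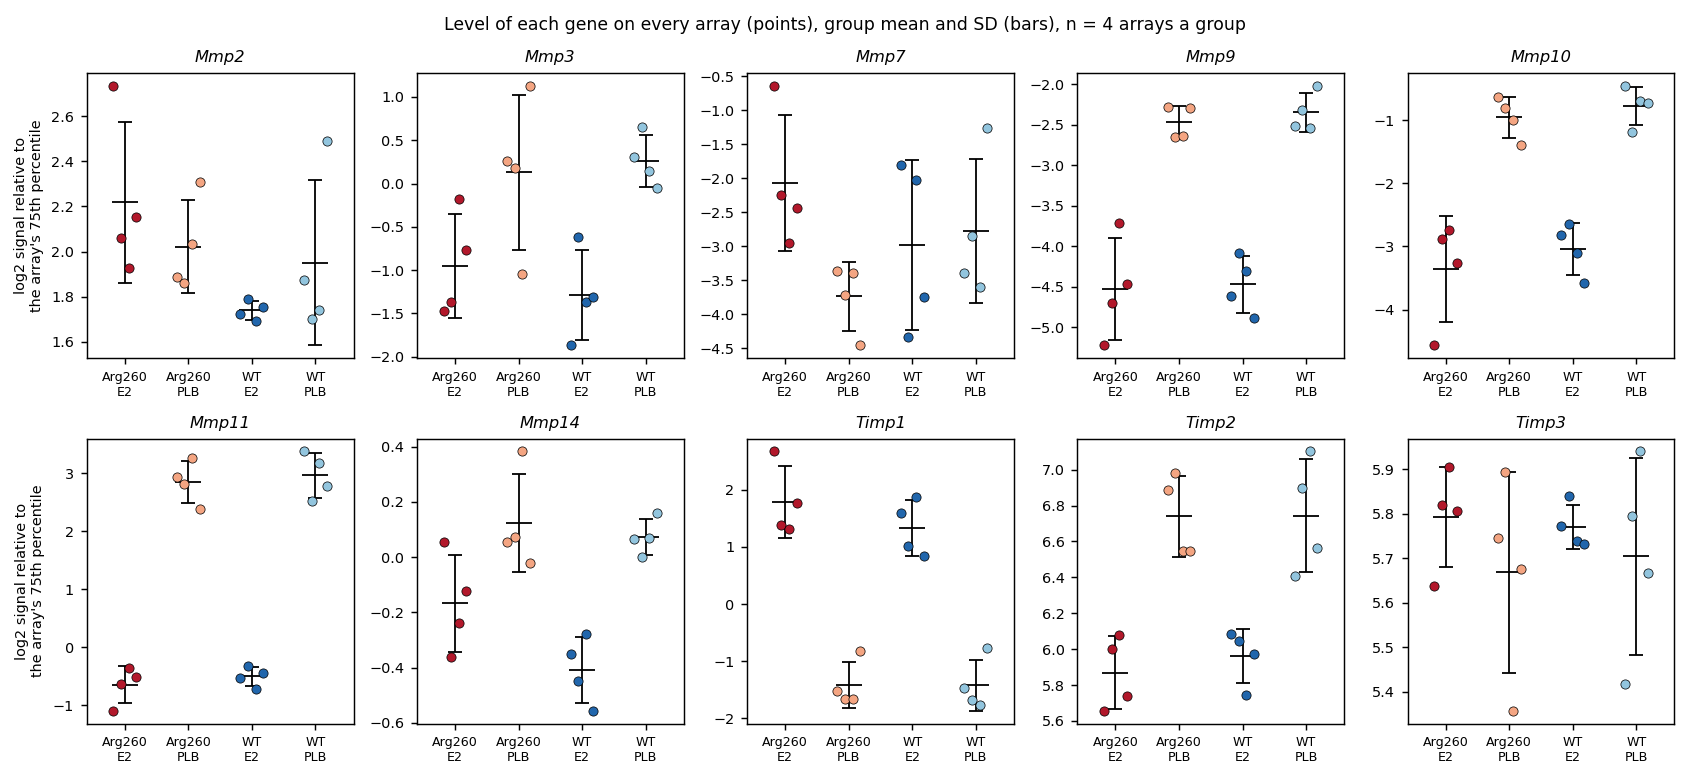
Level of each of the 10 genes on every array (points) with the group mean and SD (bars, n = 4), on a log2 scale relative to the array's 75th percentile; each panel has its own vertical axis. Arg260 E2, Arg260 PLB, WT E2 and WT PLB run from left to right, and the E2 and PLB points are apart in both genotypes for Mmp9, Mmp10, Mmp11, Timp1 and Timp2.

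MMP7, or matrilysin, is an enzyme of glandular and mucosal epithelium that lacks the hinge and hemopexin domain of most of the family. Its probe lies at mm9 chr9:7697641-7697700. Mmp7 was at -0.64, -2.25, -2.96 and -2.44 in Arg260 E2, against -3.36, -3.72, -3.40 and -4.46 in Arg260 PLB. In WT it was at -1.81, -4.33, -2.02 and -3.75 after E2, against -3.39, -2.85, -3.61 and -1.26 with PLB. The Arg260 groups did not overlap, whereas the WT groups overlapped over most of their range, and the SD within a group was 0.51 to 1.25. Mmp7 rose by 1.66 in Arg260 (SE 0.65, 95% interval 0.26 to 3.06, adjusted p = 0.0373 in limma), and the WT change of -0.20 did not pass (SE 0.65, -1.60 to 1.20, adjusted p = 0.805). The Arg260 call was lost with no filter on dim probes (0.0532), with the percentile taken over detected probes only (0.0678), and when replicate 1 (change 1.19, adjusted p = 0.128) or 2 (1.72, 0.0559) of Arg260 E2, or replicate 2 (1.67, 0.0635) or 4 (1.42, 0.0986) of Arg260 PLB, was left out. The test of the difference between the 2 responses gave 1.87 (SE 0.92, 95% interval -0.11 to 3.85, unadjusted p = 0.0629, adjusted p = 0.9998), so that the data do not show that Mmp7 responded differently in the 2 genotypes.

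MMP14 is a membrane-anchored collagenase that activates pro-MMP2, with its probe at mm9 chr14:55058775-55058834. Mmp14 was at 0.05, -0.36, -0.24 and -0.12 in Arg260 E2, against 0.06, 0.07, 0.38 and -0.02 in Arg260 PLB. Its WT levels were -0.35, -0.45, -0.28 and -0.56 after E2, against 0.07, 0.00, 0.07 and 0.16 with PLB. The WT groups did not overlap and the Arg260 groups did, through E2 replicate 1. Mmp14 fell by 0.29 in Arg260 (SE 0.10, adjusted p = 0.0242 in limma) and by 0.48 in WT (SE 0.10, adjusted p = 0.000899), the smallest called changes among the members. The Arg260 call was lost when arrays were centred on their median (-0.15, adjusted p = 0.257), with only the groups compared (0.0736), and when replicate 2 (-0.23, 0.0841) or 3 (-0.27, 0.0588) of Arg260 E2 or replicate 3 of Arg260 PLB (-0.20, 0.0823) was left out.

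Of the inhibitors, TIMP1 is a secreted, inducible inhibitor of most soluble MMPs, TIMP2 is widely and steadily expressed, and TIMP3 is bound to the matrix and inhibits ADAM proteinases as well. Their probes lie at mm9 chrX:20451802-20451861 (Timp1), chr11:118163146-118163205 (Timp2, the probe that stands for the gene) and chr10:85811696-85811755 (Timp3).

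Timp1 was at 2.67, 1.38, 1.31 and 1.77 in Arg260 E2, against -1.52, -1.66, -1.66 and -0.82 in Arg260 PLB. The WT arrays were at 1.60, 1.02, 1.87 and 0.84 after E2, against -1.47, -1.67, -1.76 and -0.78 with PLB. All E2 arrays were above all PLB arrays. Timp1 rose by 3.20 in Arg260 (SE 0.33, 95% interval 2.49 to 3.90, adjusted p = 7.41e-07 in limma) and by 2.75 in WT (SE 0.33, 2.05 to 3.46, adjusted p = 3.59e-06), that is 9.17-fold and 6.74-fold.

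Timp2 was at 5.66, 6.00, 6.08 and 5.74 in Arg260 E2, against 6.89, 6.98, 6.55 and 6.55 in Arg260 PLB. In WT it was at 6.08, 6.04, 5.74 and 5.98 after E2, against 6.41, 6.90, 7.10 and 6.57 with PLB. The groups did not overlap in either genotype. Timp2 fell by 0.87 in Arg260 (SE 0.16, adjusted p = 0.000203 in limma) and by 0.78 in WT (SE 0.16, adjusted p = 0.000531) by this probe, and a second probe, described below, did not show a called change.

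Timp3 was at 5.64, 5.82, 5.91 and 5.81 in Arg260 E2, against 5.75, 5.89, 5.36 and 5.68 in Arg260 PLB. Its WT levels were 5.77, 5.84, 5.74 and 5.73 after E2, against 5.42, 5.80, 5.94 and 5.67 with PLB. The E2 arrays lay inside the range of the PLB arrays in WT and overlapped it in Arg260. The change was 0.12 in Arg260 (SE 0.12, 95% interval -0.13 to 0.38, adjusted p = 0.384 in limma) and 0.07 in WT (SE 0.12, -0.19 to 0.32, adjusted p = 0.658). Its direction depends on the scaling: in Arg260 it was called lower after quantile normalization, at -0.27 (adjusted p = 0.0396), and after normexp correction with quantile normalization, at -0.28 (0.0202).

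Both Mmp11 and Timp2 have a second probe, and the pairs behaved unlike each other. The second Mmp11 probe, at mm9 chr10:75386209-75386268, was at -1.98, -1.29, -1.06 and -1.25 in Arg260 E2, against 2.35, 2.12, 2.67 and 1.77 in Arg260 PLB. It changed by -3.62 in Arg260 (SE 0.23, adjusted p = 5.81e-09 in limma over all probes) and by -3.58 in WT (SE 0.23, adjusted p = 6.45e-09), close to the first probe in size. The second Timp2 probe was at 1.70, 1.99, 2.10 and 2.18 in Arg260 E2, against 1.99, 2.19, 1.76 and 2.23 in Arg260 PLB, and at 1.66, 1.98, 1.93 and 2.07 in WT E2, against 2.04, 2.15, 2.21 and 2.17 in WT PLB. Its change was -0.05 in Arg260 (SE 0.13, adjusted p = 0.752) and -0.24 in WT (SE 0.13, adjusted p = 0.120), neither of them called. Its mm9 coordinates, chr11:118171964-118178741, span 6778 bases, more than the 60 bases of the other member probes, whereas the first Timp2 probe lies at lower coordinates on the chromosome. Both Timp2 probes are annotated to the same RefSeq transcript. Whether either probe also detects other transcripts, and why the pair differed, was not tested.

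**Figure D3:**
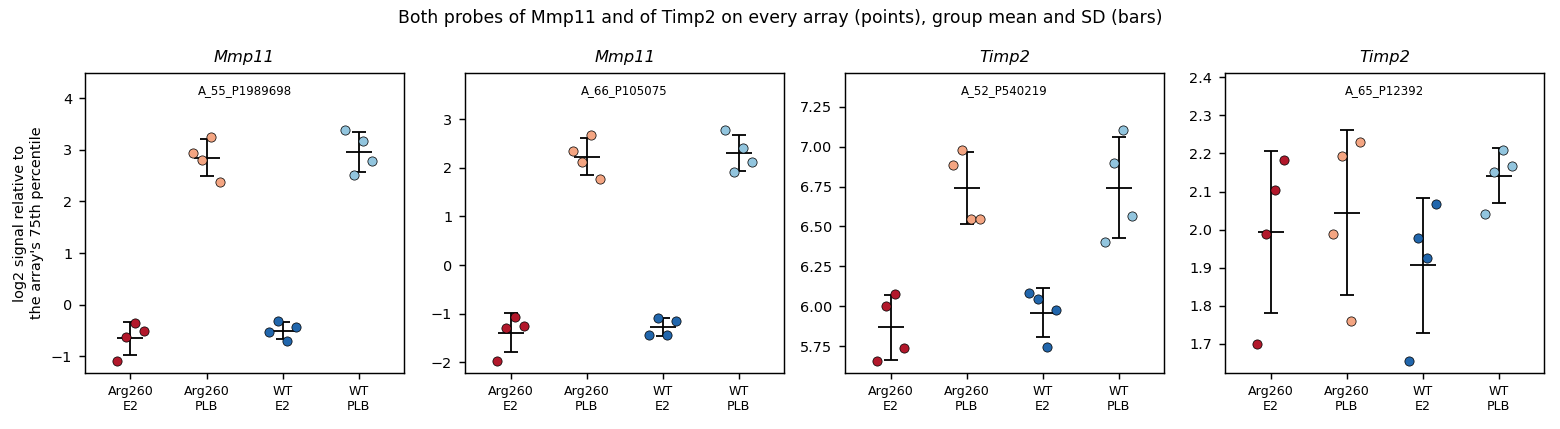
Level on every array (points) of both probes of Mmp11 (left panels) and both probes of Timp2 (right panels), as log2 signal relative to the array's 75th percentile, with group mean and SD (bars, n = 4). Both Mmp11 probes and the first Timp2 probe part E2 from PLB arrays, whereas the second Timp2 probe, named A_65_P12392, changes by -0.05 in Arg260 and -0.24 in WT.

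Within slides the directions of the called members held. The 16 arrays lay on 2 slides with 2 arrays of each group on each. With slide as a block, 8 members were called in Arg260 and 7 in WT, as without it. Slide 1 alone gave 6 in each genotype, and slide 2 alone gave 4 in Arg260 and 5 in WT. On slide 1 and slide 2 in that order, the changes in Arg260 were -3.73 and -3.25 for Mmp11, -2.50 and -1.62 for Mmp9, 3.62 and 2.78 for Timp1, -1.11 and -0.64 for Timp2, -1.65 and -0.51 for Mmp3, 2.10 and 1.23 for Mmp7, and -0.22 and -0.36 for Mmp14. In WT they were -3.37 and -3.55 for Mmp11, -1.93 and -2.32 for Mmp9, -1.91 and -2.63 for Mmp10, 2.88 and 2.63 for Timp1, -0.59 and -0.97 for Timp2, -1.72 and -1.38 for Mmp3, and -0.43 and -0.53 for Mmp14. On single slides the calls lost were those of Mmp14 on both slides in both genotypes, of Mmp7 on both in Arg260, of Mmp3 on slide 2 in both genotypes and of Timp2 on slide 2 in Arg260.

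The next question was whether the receptor form changed the level of these genes, or their response. No member was called for Arg260 against WT in PLB, for Arg260 against WT after E2, or for the difference of the responses, and neither was any other gene (0% of 25893 in each of the 3 comparisons). At an unadjusted p under 0.05, 0 members differed in PLB (639 of all genes), 2 after E2 (1902) and 0 in their response (962). The 2 were Mmp2 and Mmp14, both higher in Arg260. Mmp2 averaged 2.22 ± 0.36 in Arg260 E2 and 1.74 ± 0.04 in WT E2 (SD, n = 4 each), and every Arg260 array was above every WT array. This was the 1 member whose genotype groups did not overlap after E2, where 3.95% of all genes did not overlap, and 0 members did so in PLB, where 1.67% of all genes did. The difference for Mmp2 was 0.48 (SE 0.19, 95% interval 0.08 to 0.88, adjusted p = 0.637 in limma). It was 0.64 on slide 1 and 0.32 on slide 2. Mmp14 averaged -0.17 ± 0.18 in Arg260 E2 and -0.41 ± 0.12 in WT E2, a difference of 0.24 (SE 0.10, 95% interval 0.02 to 0.46, adjusted p = 0.657), and it was 0.25 and 0.24 on the 2 slides.

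The intervals say how large a genotype difference could have gone unseen. For Mmp11, the response in Arg260 minus that in WT was -0.03 (95% interval -0.68 to 0.62), beside a fall of more than 3 units in each genotype. For Timp1 it was 0.45 (-0.55 to 1.44), for Mmp9 0.07 (-0.73 to 0.86), for Mmp10 -0.13 (-1.17 to 0.90), and for Mmp3 0.47 (-0.76 to 1.70). For Mmp14 it was 0.19 (-0.12 to 0.51), for Timp2 -0.09 (-0.57 to 0.39), for Timp3 0.06 (-0.31 to 0.42) and for Mmp2 0.41 (-0.16 to 0.97). In PLB the differences in level between Arg260 and WT lay between -0.96 (Mmp7, 95% interval -2.36 to 0.44) and 0.07 (Mmp2, -0.33 to 0.47). The slides differed in sign for the difference in response of Mmp9 (-0.56 on slide 1 and 0.70 on slide 2), Mmp10 (-1.095 and 0.83), Mmp11 (-0.37 and 0.30), Timp2 (-0.52 and 0.33) and Timp3 (-0.29 and 0.41).

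**Figure D4:**
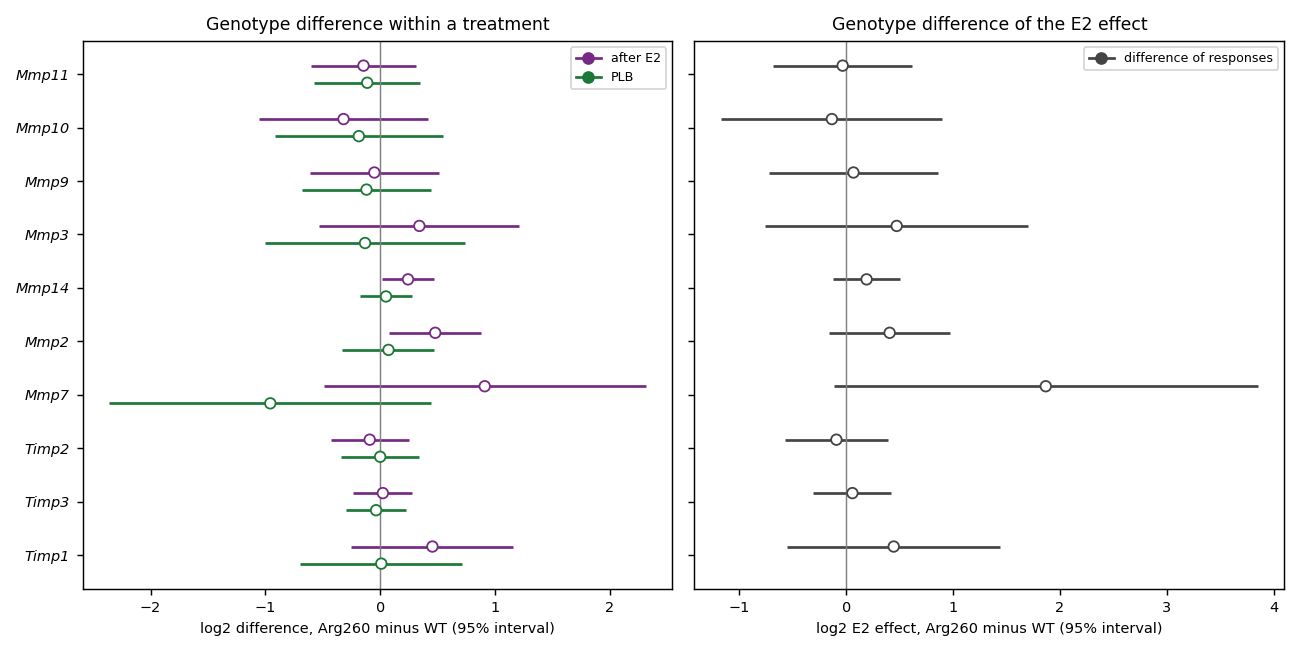
Genotype differences of the 10 genes as log2 values with 95% intervals: Arg260 minus WT after E2 and in PLB (left), and the E2 effect in Arg260 minus that in WT (right). All points are open because 0 were called; after E2 the intervals of Mmp2 (0.08 to 0.88) and Mmp14 (0.02 to 0.46) leave out 0.

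Ordered by level over the 4 conditions, 4 members shared 1 order. For Mmp11, Mmp10, Mmp9 and Timp2 the group means ran, from low to high, Arg260 E2, WT E2, Arg260 PLB and WT PLB, and for each of the 4 the only step larger than the spread was that between WT E2 and Arg260 PLB. Mmp11 averaged -0.65 ± 0.32, -0.50 ± 0.17, 2.85 ± 0.36 and 2.96 ± 0.39 in that order (SD, n = 4 each). Mmp10 averaged -3.36 ± 0.84, -3.04 ± 0.41, -0.96 ± 0.33 and -0.77 ± 0.30, and Mmp9 averaged -4.52 ± 0.63, -4.47 ± 0.35, -2.47 ± 0.21 and -2.35 ± 0.24. Timp2 averaged 5.87 ± 0.20, 5.96 ± 0.15, 6.74 ± 0.23 and 6.74 ± 0.32. Timp1 ran the other way, with 1.79 ± 0.63 in Arg260 E2 and 1.33 ± 0.49 in WT E2, then -1.41 ± 0.40 in Arg260 PLB and -1.42 ± 0.45 in WT PLB. For the other members the order was less clear. Mmp3 averaged -0.95 ± 0.60 in Arg260 E2 and 0.13 ± 0.89 in Arg260 PLB, and -1.29 ± 0.52 in WT E2 and 0.26 ± 0.30 in WT PLB, and among neighbours in its order only Arg260 E2 and Arg260 PLB were called apart. Mmp14 averaged -0.17 ± 0.18 in Arg260 E2 and 0.12 ± 0.18 in Arg260 PLB, and -0.41 ± 0.12 in WT E2 and 0.07 ± 0.06 in WT PLB, so that its lowest group was WT E2; the step between the E2 groups was not called, and the PLB groups lay less than the larger of their SDs apart. Mmp7 averaged -2.07 ± 0.998 in Arg260 E2 and -3.74 ± 0.51 in Arg260 PLB, the highest and the lowest group, and -2.98 ± 1.25 in WT E2 and -2.78 ± 1.06 in WT PLB between them, with no neighbours further apart than the larger of their SDs. Mmp2 averaged 2.22 ± 0.36 in Arg260 E2, 2.02 ± 0.21 in Arg260 PLB, 1.74 ± 0.04 in WT E2 and 1.95 ± 0.37 in WT PLB, and Timp3 averaged 5.79 ± 0.11, 5.67 ± 0.23, 5.77 ± 0.05 and 5.71 ± 0.22 in the same order, again with no neighbours further apart than that.

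The rest of the family was read from a list of 16 further Mmp genes and Timp4, of which 9 passed the filter on dim probes. In Arg260, 3 were called higher and 3 lower, and in WT 2 higher and 3 lower. Over all genes tested, 64.3% were called in Arg260 and 63.6% in WT. Mmp19, a metalloproteinase of basement membrane substrates, rose by 3.29 in Arg260 (SE 0.32, adjusted p = 4.14e-07 in limma) and by 2.68 in WT (SE 0.32, adjusted p = 3.58e-06). Its mean level was -0.46 ± 0.74 in Arg260 E2, against -3.74 ± 0.39 in Arg260 PLB, and -1.14 ± 0.42 in WT E2, against -3.82 ± 0.24 in WT PLB (SD, n = 4 each). The membrane-anchored Mmp17 rose by 0.76 in Arg260 and 0.77 in WT, and the membrane-type Mmp15 fell by 1.40 in Arg260 and fell by 1.01 in WT. Mmp23 fell by 0.96 in Arg260 and fell by 0.94 in WT. Mmp24 rose by 0.53 in Arg260 (adjusted p = 0.0237) and was at 0.01 in WT (adjusted p = 0.964), but its probe was well above background on 3 of 4 E2 and 2 of 4 PLB arrays in Arg260, and on 2 of 4 E2 and 1 of 4 PLB arrays in WT. Mmp27 was well above background on 0 of 4 E2 arrays and 3 of 4 PLB arrays in each genotype, and was at least 2.21-fold lower in Arg260 and at least 2.20-fold lower in WT. This bound, like those below, sets the mean of the brighter group against a floor for each dim array: the dimmest probe still above background there, or the probe's own signal if that is higher. Mmp12, Mmp25 and Timp4 were not called in either genotype. Timp4 was at 0.22 in Arg260 and -0.15 in WT, while Mmp12 and Mmp25 were well above background on 0 of 4 WT E2 arrays and on 2 of 4 or fewer in the other groups, so that no size is given for them. Mmp1a, Mmp1b, Mmp8, Mmp13, Mmp16, Mmp20, Mmp21 and Mmp28 did not pass the filter. Of the 5 tested genes of the chromosome 9 cluster, Mmp3, Mmp10 and Mmp27 were lower in both genotypes and Mmp7 was higher in Arg260.

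Transcripts of proteins that activate the enzymes, hold them at the cell surface or clear them were measured for 21 of 23 listed genes. In Arg260, 11 were called higher and 4 lower, and in WT 10 higher and 4 lower. The share of all genes called was 64.3% in Arg260 and 63.6% in WT. The tissue kallikrein gene Klk1 rose by 6.39 in Arg260 and 6.21 in WT, though near-identical mouse kallikrein genes may share its probe. Lcn2, a secreted lipocalin known in human to form a complex with MMP9, rose by 4.23 in Arg260 and 3.91 in WT, and Plaur, the urokinase receptor that focuses plasminogen activation, by 2.71 and 2.60. Cldn1, a tight junction gene whose product promotes the activation of pro-MMP2 by MMP14 in cultured cells, fell by 4.45 in Arg260 and fell by 4.64 in WT, with 3 of 4 Arg260 E2 and 4 of 4 WT E2 arrays well above background. Serpine2, an inhibitor of serine proteases, fell by 0.92 in Arg260 and fell by 1.01 in WT, and Reck, a membrane-anchored inhibitor of several MMPs, fell by 0.83 in Arg260 and fell by 0.89 in WT. The adjusted p of these 12 changes ranged from 5.04e-10 (Klk1 in Arg260) to 0.00119 (Reck in Arg260) in limma.

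Matrix substrates were called in both directions. All 25 listed were tested, with 7 called higher and 3 lower in Arg260 and 4 higher and 3 lower in WT. The share of all genes called was 64.3% in Arg260 and 63.6% in WT. Col5a1, which encodes a collagen of thin fibrils, rose by 1.85 in Arg260 and 1.54 in WT, the laminin gene Lama5 by 1.09 and 1.03, and the elastin gene Eln by 1.14 and 0.71. The small proteoglycan genes Bgn and Dcn changed by -0.94 and -0.79 in Arg260 and by -1.07 and -0.74 in WT, all called, and Vtn, which encodes vitronectin, fell by 0.45 in Arg260 and fell by 0.80 in WT. The median change of the 25 was -0.03 in Arg260 and 0.01 in WT, beside 0.02 and -0.02 over all genes.

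Among 24 listed regulators of MMP and TIMP genes known from other cells, 23 were tested. In Arg260, 15 were called higher and 2 lower, and in WT 18 higher and 3 lower, with a median change of 1.52 and 1.47. Over all genes tested, 64.3% were called in Arg260 (33.6% higher) and 63.6% in WT (31.9% higher). The AP-1 subunit gene Fosl1 was not well above background on any PLB array and was at least 11.5-fold higher in Arg260 and at least 8.48-fold higher in WT. The AP-1 subunit gene Fos rose by 4.21 in Arg260 and 3.39 in WT. The cytokine gene Il6 was called higher in both genotypes, with fitted changes of 4.71 in Arg260 and 4.30 in WT; it was well above background on 4 of 4 E2 and 1 of 4 PLB arrays in each, so these sizes rest on PLB signals that were mostly not above background. Runx2, a transcription factor of skeletal cells that acts on Mmp genes there, was well above background on 0 of 4 Arg260 E2 arrays and was at least 4.17-fold lower in Arg260, and it was called lower in WT, where its fitted change of -1.91 rests on E2 signals well above background on 1 of 4 arrays. Etv4, an ETS factor, fell by 0.50 in Arg260 and fell by 0.81 in WT. These are transcript levels in the same RNA, and whether any of these factors acted on a member was not tested.

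**Figure D5:**
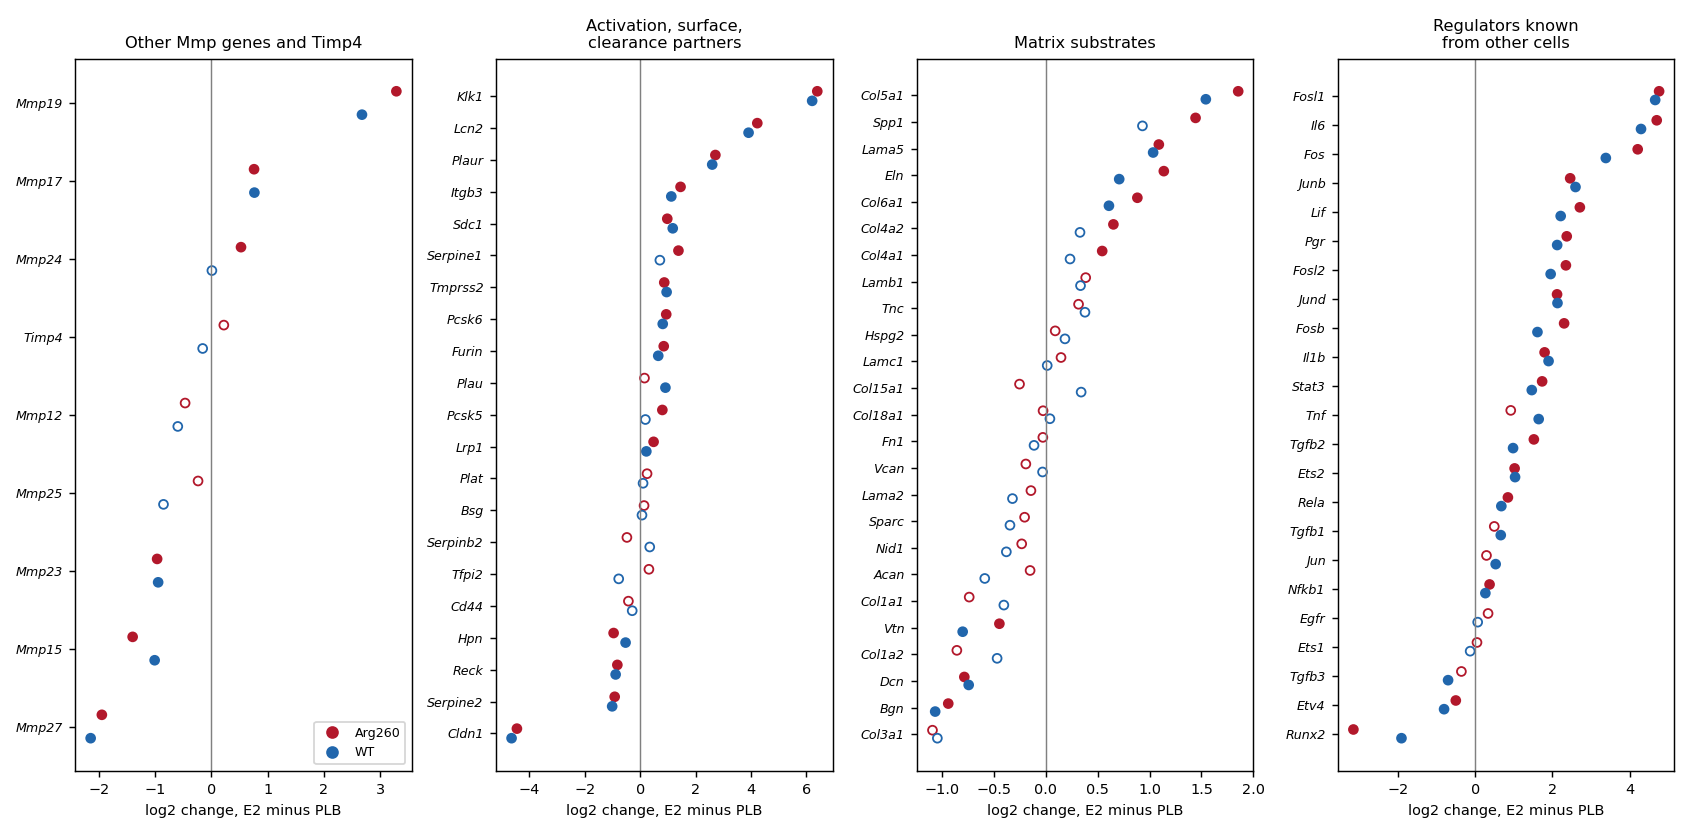
Change after E2 (log2, E2 minus PLB, horizontal axis) of the tested genes of 4 lists, red for Arg260 above blue for WT in each row; filled points were called in limma (adjusted p under 0.05). Each panel has its own axis; Mmp19 rose most among the other family members, at 3.29 in Arg260 and 2.68 in WT, and Klk1 most among the partners, at 6.39 and 6.21. For Mmp12, Mmp24, Mmp25, Mmp27, Serpinb2, Tfpi2, Fosl1, Runx2 and Il6, fewer than 3 of 4 arrays in at least 1 group were well above background, and their points are fitted values that rest in part on signal not above it.

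The 3 genes most like each member were taken by Pearson correlation over the 16 arrays among 14122 genes with an official symbol. The 16 arrays fall into E2 and PLB clusters, so for a called member the value mostly reads that split; it is given as a description, followed by the value after the group means were removed. Mmp11 was most like Fchsd1 (0.995 and 0.855), Otud1 and Prtg. Mmp9 was most like Pgm5 (0.981 and 0.862), Fancg and Pyroxd2, and Mmp10 was most like Nr1d2 (0.981 and 0.890), Dock11 and Gulp1. Mmp3 was most like Ltc4s (0.970 and 0.935), Fbln5 and Fmod, of which the last 2 encode matrix proteins of elastic and collagen fibres. Timp1 was most like Prelid1 (0.993 and 0.927), Eif4e2 and Ndufs4, and the genes like Timp2 included Stim1 (0.970 and 0.840) and Ppp4r1l-ps. Mmp14 was most like Uap1l1 (0.949 and 0.894), Trps1 and Aldh16a1. For the members with little or unsteady change, Mmp7 was most like Slc26a4 (0.883 and 0.851), Spp1 and Slc23a3, Mmp2 was most like Arsg (0.869 and 0.931) and Kalrn, and Timp3 was most like Pde4c (0.813 and 0.824), Mfsd2b and Pitpnm2. Spp1, the osteopontin gene and a known substrate of MMP7 and MMP3, changed by 1.44 in Arg260 (adjusted p = 0.0488 in limma) and by 0.93 in WT (adjusted p = 0.193).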

How the data were processed

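RNA of 16 uterus samples (4 groups of 4, by the labels) was labelled with Cy3 from 200 ng each and measured on 16 one-colour Agilent mouse arrays. The authors' deposited scanner files give spot intensities from Agilent Feature Extraction, with version 10.10.1.1 named in the submitters' processing notes. According to their headers, the processed signal has background subtracted but no scaling between arrays. A deposited table of the whole series has log2 values, for which limma is named in the submitters' processing notes and other steps were not stated in the labels. That table was used only as an alternative.

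From the scanner files, log2 of the processed signal minus log2 of each array's 75th percentile (922 to 1296 intensity units) was taken. Outlier spots were dropped, and replicate spots of a probe were averaged. Probes well above background on at least 4 of 16 arrays entered, and the probe with the highest mean stood for its gene. Names were updated through a RefSeq table of GRCm38.p6 (27235 probes by accession, 3581 by symbol, 565 by synonym, 24300 kept as in the file). Probe coordinates (mm9) come from the files.

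A limma model (version 3.58.1, R 4.3.3; lmFit, eBayes) with 1 mean per group was fitted to all 16 arrays, with 12 residual degrees of freedom. The 5 comparisons were E2 minus PLB in each genotype, their difference, and Arg260 minus WT in each treatment, two-sided, with Benjamini-Hochberg adjustment over all genes. The script was tested on simulated data. Precision is limited by the number of arrays: the median 95% interval extended 0.296 log2 units to either side for an E2 effect and 0.418 for the difference of the effects. The members and the gene lists were chosen with earlier results of these data known. Named are the 10 members, the tested genes of the further family list, up to 3 called genes with the largest mean rise and fall from each other pathway list, and the 3 genes most correlated with each member, of which 1 for Timp2 and 1 for Mmp2 are not reported here; the markers and Spp1 were named after their values were seen. Alternatives covered background correction, scaling, the deposited table, the dim-probe filter, the probe per gene, outlier spots, slide, replicate number, the samples in the fit, the variance prior and each array left out. Promoters are RefSeq's (GRCm38.p6); 8 of the 10 members matched.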

Additional observations from a re-analysis of the deposited data

Results flagged for a closer look

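One value stood far from the others of its group. Timp1 was at -0.816 on Arg260 PLB replicate 4, while the other 3 Arg260 PLB arrays lay between -1.657 and -1.520, and the gap filled 0.837 of the group's range by Dixon's ratio, above the 95% critical value for 4 samples. Of 40 groups of 4 arrays checked (10 genes in 4 groups) this was the only one, and chance flags about 1 in 20. The array is still below all 4 Arg260 E2 arrays, and 0 members were flagged for a difference between the genotypes' responses.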

How the results depend on the processing

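Over 32 alternatives, the calls of Mmp9, Mmp10, Mmp11 and Timp1 in both genotypes and of Timp2 in WT kept their direction and their side of the threshold. The number of members called after E2 in Arg260, 8 as reported, was 4 on slide 2 alone. It ranged from 5 to 8 when 1 array was left out (5 without Arg260 E2 replicate 2). In WT the number was 7 each time 1 array was left out. It was 8 in the deposited table and lower on each single slide, as given above. No member was called for a genotype difference or a difference of responses under any of the 32 alternatives. Timp3 in Arg260 reversed, to -0.276 with normexp and quantile normalization and to -0.270 with quantile normalization; the cause was not tested. A total of 92 of 1600 values changed sign where neither setting called them. Without the 2 PLB arrays that stood apart (chosen after seeing the data), the Arg260 calls of Mmp7 (adjusted p = 0.0572) and Mmp14 (0.0931) were lost in limma. The percentile over detected probes moved the median change of all genes to -0.231 in Arg260 and -0.224 in WT, with 37.43% and 37.74% of calls higher, and centring on the median moved it to 0.153 and 0.122, with 60.69% and 59.34% higher, beside 52.19% and 50.15% as reported. Replicate numbers did not pair the samples (correlations of -0.051 to 0.259 between same-numbered arrays, and not every array correlated best with its own number); the replicate block gave 8 members called in Arg260 and 7 in WT, and changed no call. The number of arrays limits what can be seen, and the members' probes were all well above background.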

Other observations

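Some arrays were the highest or lowest for several members at once, within their group. Arg260 E2 replicate 1 had the highest Mmp2 (2.73), Mmp7 (-0.64), Mmp14 (0.05) and Timp1 (2.67) of its group, and the lowest Mmp9 (-5.22), Mmp10 (-4.57), Mmp11 (-1.09), Mmp3 (-1.48), Timp2 (5.66) and Timp3 (5.64). WT PLB replicate 4 had the highest Mmp2 (2.49), Mmp7 (-1.26), Mmp14 (0.16) and Timp1 (-0.78) of its group, and also the highest Mmp9 (-2.02) and the lowest Mmp3 (-0.05). Arg260 PLB replicate 4 had the highest Mmp2 (2.31), Mmp3 (1.12) and Timp1 (-0.82), but the lowest Mmp7 (-4.46), Mmp10 (-1.39), Mmp11 (2.39) and Mmp14 (-0.02). After the group means were removed, the correlation over the 16 arrays was 0.798 between Mmp2 and Timp1, 0.701 between Mmp7 and Timp1 and 0.518 between Mmp2 and Mmp7, and it was 0.841 between Timp2 and Timp3; these values describe 16 arrays that share their scaling.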
